A study of Homo sapiens with 3 samples.

Results

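The E2F transcription factors E2F1 to E2F8, together with MYBL2 and FOXM1, were read in HCT116 cells after knockdown of SMARCA4. The 10 genes were found by their gene names among the probes for transcripts on the arrays. They had 14 probes of 58201, and all 10 were among the 22620 genes measured in the series. Each of the 14 probes was well above background on all 3 arrays and 0 were saturated, so that no member was lost to the filter on dim probes.

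HCT116 is a colorectal cancer cell line, and all samples were HCT116 cells transfected with oligonucleotides by a lipid reagent. SMARCA4-KD1 and SMARCA4-KD2 cells received small interfering RNA (siRNA) against SMARCA4, the ATPase of the SWI/SNF chromatin remodeling complex, and NC cells are the negative control, described in the study as scrambled. No label says which of the siRNAs was used for which knockdown array. The time from transfection to RNA extraction is not given in the sources used here. The question was how the cell cycle transcription factors differed between knockdown and NC cells. Total RNA of each condition was hybridised to 1 Agilent array with 1 colour, so that no condition had a replicate and the spread between replicates is unknown. A signal below is the background-corrected intensity of a probe. A log2 fold change is the difference of log2 signals after each array was scaled to its 75th percentile, an intensity of 223 in NC, 237 for SMARCA4-KD1 and 228 for SMARCA4-KD2. Since 1 NC array served both comparisons, they are not independent. Both knockdown arrays were on slide 1, while slide 2 held the NC array and was scanned separately. Batch and group therefore cannot be told apart.

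The sample titles name SMARCA4, while the treatment field of the same records names PRMT1, and the knockdown number was taken from that field. SMARCA4 itself had a signal of 14026 in NC, 3960.2 for SMARCA4-KD1 and 4129 for SMARCA4-KD2, so that 26.6% and 28.8% of the NC level were left. PRMT1 had log2 fold changes of 0.27 and 0.37. Probes for 6 of 6 epithelial markers (EPCAM, KRT8, KRT18, KRT19, CDH1 and CLDN7) were well above background on each array. Of 5 intestinal markers, CDX1 and CDX2 were well above background and VIL1, LGALS4 and CDH17 were not, on any array. Of 9 blood, endothelial and stromal markers with a probe, 4 were well above background on each array, PTPRC, VWF and COL1A1 among them, and the list had a summed signal of 519 in NC, 665 for SMARCA4-KD1 and 565 for SMARCA4-KD2, against 374964, 408648 and 399789 for the epithelial list.

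E2F proteins bind the promoters of genes for DNA replication and cell division. E2F1, E2F2 and E2F3 mainly activate and are held in check by RB1, while E2F4 and E2F5 mainly repress with the RB relatives RBL1 and RBL2. E2F6 represses without these pocket proteins, and the atypical E2F7 and E2F8 bind DNA without a DP partner and repress late in S phase. MYBL2 (B-Myb) joins the MuvB complex and, with FOXM1, switches on the genes of G2 and mitosis. In resting cells the same MuvB core holds E2F4 and RBL1 or RBL2 in the repressive DREAM complex. MYBL2 is a classic E2F target, and colorectal tumors, like other proliferating tissues, are known to express these genes.

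For the members that differed most, the values rest on 1 probe of 60 bases each, or on the brighter probe for E2F7, and the first 30 bases are given to show what was measured. Positions are those of the array annotation in hg19. The MYBL2 probe lies on the plus strand at chr20:42343796-42343855. The probes of FOXM1 (chr12:2967322-2967381), E2F8 (chr11:19245675-19245734) and E2F7 (chr12:77415520-77415579) lie on the minus strand. The exon that each probe reads was not annotated here.
MYBL2 probe: cttccagcctcaccctgtcaggtatcaaag
FOXM1 probe: ggtaggatgacctggggtttcaattgactt
E2F8 probe: atctgttgttgcagtgtatctttttgtaaa
E2F7 probe: aagctgctgcgctagacttggatattttgg

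The family is known to regulate its own promoters, so the promoters were searched for E2F core words. RefSeq promoters (GRCh38.p14, 250 bases before to 50 after the start) of 7 members, with 8 promoters, were searched. These members were E2F1, E2F2, E2F3 (with 2), E2F4, E2F6, E2F7 and MYBL2. The promoter of E2F5 was left out of the search, and none was at hand for FOXM1 and E2F8. The member counts below cover only the promoters searched. The words TTCCCG and TTCGCG and also TTGCCG and TTGGCG, on both strands, stood in 7 of the 8 promoters and in 6 of the 7 members, against 31.1% of all 35116 promoters. The words were chosen with these sequences seen, so the difference from this share supports nothing. Of the 8, 5 held at least 2 matches, against 8.66% of all, and for the same reason this difference supports nothing. Windows of 30 bases are shown with the matches in capitals, 5′ to 3′ on the strand of the gene, and those of E2F1, E2F2, E2F3 and MYBL2 lie within 61 bases of the start. For E2F3 the promoter with 3 matches is shown.
E2F1, chr20:33686397-33686426, minus strand: gctctTTCGCGGCAAaaaggatTTGGCGcg
E2F2, chr1:23531265-23531294, minus strand: cgaatTTCGCGgcacgacgtTTGGCGctaa
E2F3, chr6:20401822-20401851, plus strand: gccggCGGGAAatccgagtTTCGCGggagg
E2F6, chr2:11466326-11466355, minus strand: gaccgctgggttTTCCCGgttgcctctttt
E2F7, chr12:77065727-77065756, minus strand: agggggccgaggCGGCAAcaattgggcggg
MYBL2, chr20:43667061-43667090, plus strand: gcgccgacgcgcTTGGCGggagatagaaaa

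In the E2F1 window, 2 of the 3 matches overlap. The MYBL2 promoter held 1 match, 41 bases before the start, and the E2F4 promoter held 0. CHR words (TTTGAA and TTCGAA, the element that the MuvB subunit LIN54 binds) stood in 1 of the 8 promoters, that of E2F3, against 16.4% of all. The CCAAT box stood in 3 of the 8 promoters, those of E2F1, E2F3 and E2F7, against 34.6% of all, and in none of them overlapped an E2F core word. These words too were chosen with the sequences seen, so their shares support nothing. A match to such short words is a description and not a binding site.

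MYBL2 and FOXM1, which together drive the genes of G2 and mitosis, were the members with the lowest levels relative to NC. MYBL2 had a signal of 614 in NC, 181 for SMARCA4-KD1 and 180 for SMARCA4-KD2. Both knockdown arrays were thus low and nearly equal, with 27.8% and 28.7% of the NC level. These are log2 fold changes of -1.85 and -1.80, or 3.59-fold and 3.49-fold lower than NC. Counted from the lowest log2 fold change of the 22620 genes, MYBL2 was at rank 69 for SMARCA4-KD1 and at rank 46 for SMARCA4-KD2. FOXM1, a forkhead activator, had a signal of 1987 in NC, 710 for SMARCA4-KD1 and 864 for SMARCA4-KD2. Its level was lower in both knockdowns, at 33.7% and 42.5% of NC, with the lower value in SMARCA4-KD1. The log2 fold changes were -1.57 and -1.23, a difference of -0.34 between the knockdowns, and the ranks from the lowest were 159 and 281. In bulk RNA, fewer cells in a phase of the cell cycle and less RNA of a gene per cell cannot be told apart.

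The atypical repressors E2F7 and E2F8 were also lower in both knockdowns, by less than MYBL2 and FOXM1. E2F8 had a signal of 464 in NC, 290 for SMARCA4-KD1 and 302 for SMARCA4-KD2. It was 1.70-fold and 1.57-fold lower than NC, log2 fold changes of -0.76 and -0.65, and 7.46% and 7.96% of all genes were below these values. E2F7 had a signal of 3181 in NC, 2377 for SMARCA4-KD1 and 1992 for SMARCA4-KD2. The knockdown arrays were both below NC, and SMARCA4-KD2 was the lower. The log2 fold changes of E2F7 were -0.51 and -0.71, or 1.42-fold and 1.63-fold lower. A second and dimmer E2F7 probe, at chr12:77417576-77417635, had a signal of 50.4 in NC, 51.3 for SMARCA4-KD1 and 31.8 for SMARCA4-KD2. With it SMARCA4-KD2 was lower by a like amount (-0.70), while SMARCA4-KD1 was close to NC (-0.06), so the probes of E2F7 disagreed for SMARCA4-KD1.

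**Figure D1:**
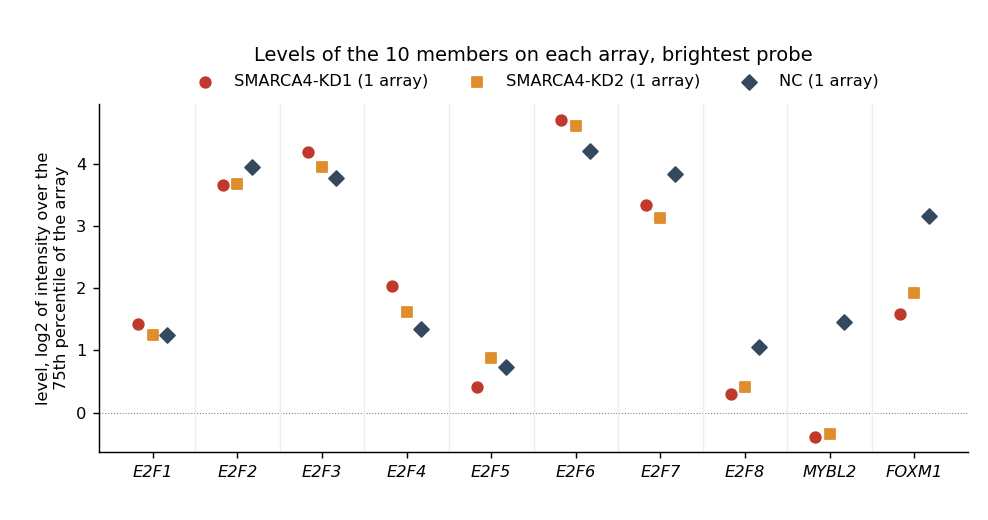
Level of each member on each array as log2 of the intensity over the array's 75th percentile, with 1 point per array and the brightest probe of each gene. MYBL2 lay at -0.39 and -0.34 in the knockdowns and at 1.46 in NC, and FOXM1 at 1.58, 1.92 and 3.15, while E2F1 lay between 1.24 and 1.42 on the 3 arrays. Levels of different genes come from different probes and are not comparable.

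The activators of the family differed from NC in different directions. E2F1, the founding member that RB1 restrains, was read by a probe at chr20:32263989-32264048. It had 10 spots on each array, and its mean signal was 530 in NC, 636 for SMARCA4-KD1 and 539 for SMARCA4-KD2. In SMARCA4-KD1, 1 spot with a signal of 751 was left out because the extraction software had marked it as an outlier. The remaining 9 spots ranged from 593 to 665 in signal, against 503 to 589 in SMARCA4-KD2 and 487 to 552 in NC. After scaling, the spots had levels of 1.42 ± 0.05 (SD, 9 spots), 1.24 ± 0.07 (SD, 10 spots) and 1.25 ± 0.06 (SD, 10 spots), in the same order. The spots of SMARCA4-KD1 lay above those of NC without overlap, and the spots of SMARCA4-KD2 and NC overlapped, but spots repeat 1 sample and do not replace replicates. The log2 fold changes of E2F1 were 0.18 and -0.01, both within the error of 0.20 that the extraction software gave for each difference.

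**Figure D2:**
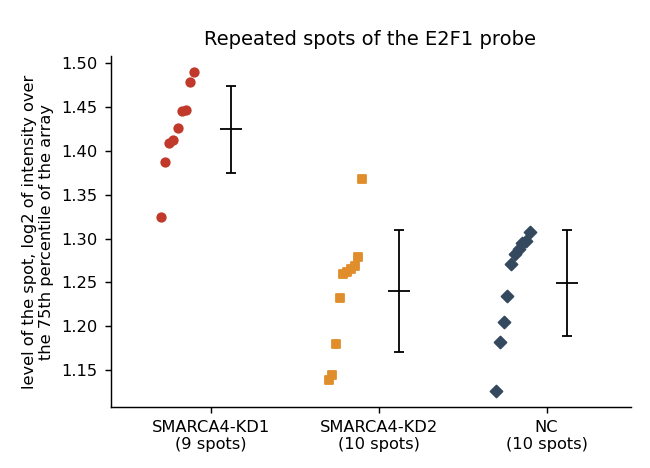
Levels of the repeated spots of the E2F1 probe (log2 of the intensity over the array's 75th percentile) on each array, with the mean and SD over spots beside them. The 9 spots of SMARCA4-KD1 ranged from 1.32 to 1.49, those of SMARCA4-KD2 from 1.14 to 1.37 and those of NC from 1.13 to 1.31. The vertical axis does not start at 0.

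E2F2 (probe at chr1:23832933-23832992) was lower than NC in both knockdowns, with a signal of 3421 in NC, 2996 for SMARCA4-KD1 and 2913 for SMARCA4-KD2. Its log2 fold changes of -0.28 and -0.26 compare with an error of 0.20 that the extraction software gave for such a difference, and they did not reach 1.5-fold. E2F3, the remaining activator, was higher than NC, with a signal of 3033 in NC, 4314 for SMARCA4-KD1 and 3519 for SMARCA4-KD2, and log2 fold changes of 0.42 and 0.18. A second E2F3 probe, at chr6:20490602-20490661 against chr6:20493845-20493904 for the brighter one, had a signal of 64.7 in NC, 142 for SMARCA4-KD1 and 80.8 for SMARCA4-KD2. Its log2 fold changes were larger, at 1.05 and 0.29. Both probes therefore read above NC in both knockdowns, with the higher value in SMARCA4-KD1. Only the dimmer one passed 1.5-fold, at 2.07-fold in SMARCA4-KD1. In SMARCA4-KD2 the brighter probe (0.18) was within the software's error of 0.20. The dimmer probe there (0.29) compares with an error of 0.23.

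Among the repressors, E2F4 and E2F6 were higher in the knockdowns and E2F5 differed in sign. E2F4, the main E2F of resting cells, had a signal of 567 in NC, 965 for SMARCA4-KD1 and 702 for SMARCA4-KD2. It was 1.60-fold and 1.21-fold higher than NC, with log2 fold changes of 0.68 and 0.28. The E2F4 probe spans 280 bases of the genome (chr16:67231510-67231789), more than its 60 bases, so that its ends lie on separate stretches. E2F5 had a signal of 372 in NC, 316 for SMARCA4-KD1 and 419 for SMARCA4-KD2, with the knockdowns on either side of NC at log2 fold changes of -0.32 and 0.14.

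E2F6, the repressor that acts without pocket proteins, had a signal of 4110 in NC, 6170 for SMARCA4-KD1 and 5550 for SMARCA4-KD2. Both knockdowns were higher, with log2 fold changes of 0.50 and 0.40, short of 1.5-fold (0.58). A second E2F6 probe, at chr2:11586461-11586520, had signals of 779 in NC and of 1172 and 1113 in the knockdowns, and log2 fold changes of 0.50 and 0.48. The third probe, at chr2:11605899-11605958, did not show this, with signals of 158 in NC and of 162 and 155 in the knockdowns, and log2 fold changes of -0.05 and -0.05. The first probe (chr2:11585524-11585583) and the second lie close to each other and the third lies farther off, toward the 5′ side of this gene on the minus strand.

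**Figure D3:**
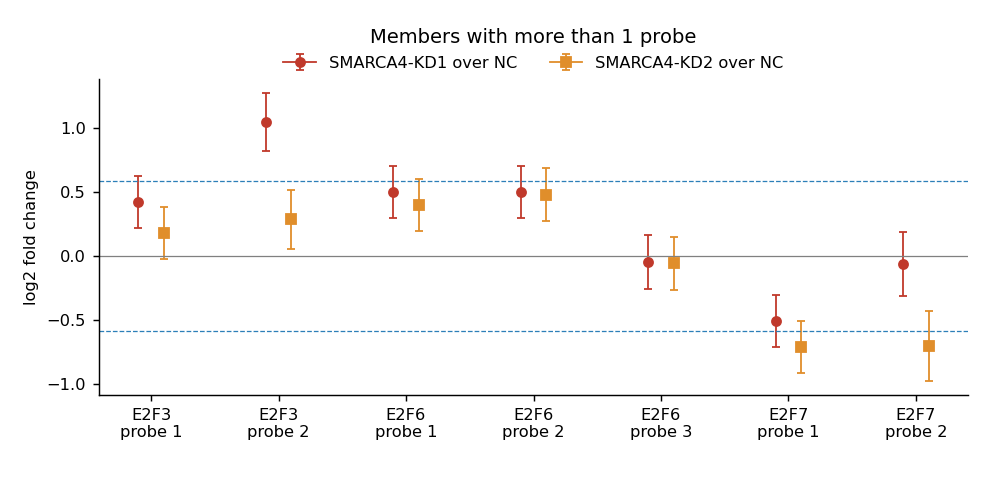
Log2 fold change against NC of each probe of E2F3, E2F6 and E2F7 in SMARCA4-KD1 and SMARCA4-KD2, with 1 array per condition. Error bars are the extraction software's error of the difference and not a spread of replicates, and dashed lines mark 1.5-fold. The probes of E2F3 lay above 0 in both knockdowns (0.42 and 1.05 in SMARCA4-KD1), the third probe of E2F6 lay at -0.05, and the second probe of E2F7 lay at -0.06 in SMARCA4-KD1 and -0.70 in SMARCA4-KD2.

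By the threshold of 1.5-fold, 3 of the 10 members (E2F8, MYBL2 and FOXM1) were lower in SMARCA4-KD1, where 12.3% of all genes were, and 1 (E2F4) was higher, where 11.2% of all genes were. In SMARCA4-KD2, 4 members (E2F7, E2F8, MYBL2 and FOXM1) were lower, against 9.77% of all genes, and 0 were higher, against 10.1%. E2F8, MYBL2 and FOXM1 were lower in both knockdowns, as were 8.05% of all genes, and no member was higher in both, as were 6.35% of all genes. The sign was the same in both knockdowns for 8 of the 10 members, with E2F1 and E2F5 as the exceptions. Over the members the median log2 fold change was -0.30 for SMARCA4-KD1 and -0.14 for SMARCA4-KD2, beside medians of -0.004 and 0.02 over all genes. Between the knockdown arrays, which share a slide, no member was 1.5-fold apart by its brightest probe, as 6.6% of all genes were. The largest such difference was that of E2F5, -0.46. The second probes of E2F3 and E2F7 were farther apart between the knockdowns, by 0.76 and 0.64.

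**Figure D4:**
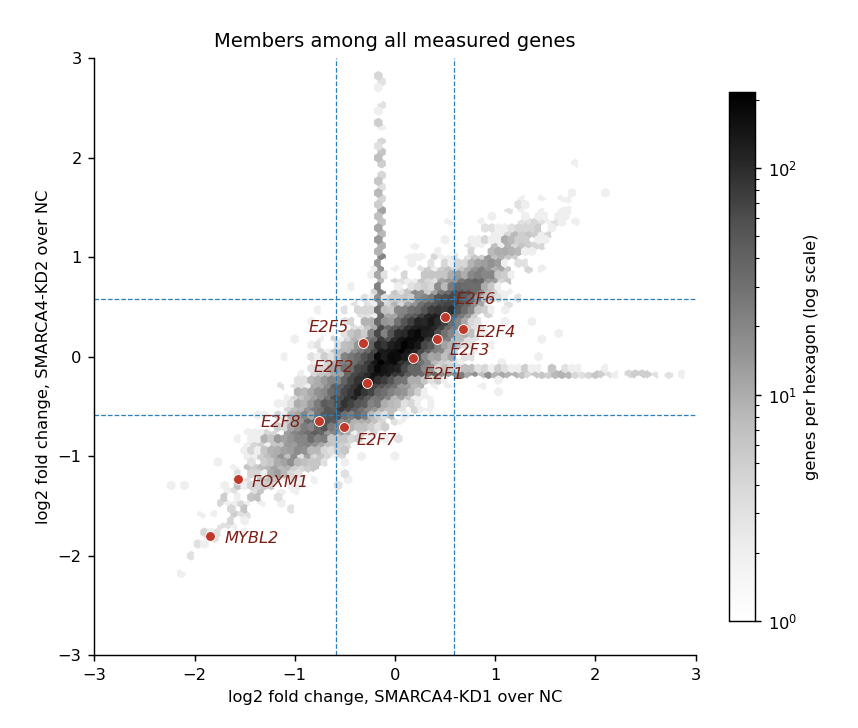
Log2 fold change against NC in SMARCA4-KD1 (horizontal) and SMARCA4-KD2 (vertical), with the 10 members as red points over the density of all genes in grey, 62 genes lying outside the axes. Dashed lines mark 1.5-fold. MYBL2 (-1.85 and -1.80), FOXM1 (-1.57 and -1.23) and E2F8 (-0.76 and -0.65) lie in the lower left field, and the remaining members lie outside it. Both axes use the same NC array, and the straight arms are genes set to the lowest level above background on NC and on 1 knockdown array. Any genes set to it on both knockdown arrays but not on NC fall on a diagonal, which is not measured agreement. No member was set to this level.

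With both knockdowns as 1 arm against NC, limma had 1 residual degree of freedom and the NC array was taken to vary like the knockdown arrays. The spread in the fit came only from differences between the knockdown arrays, which share a slide. The p-values therefore do not cover a difference between slides. At an adjusted p of 0.05 it called 0 of the 22620 genes, or 0%, and 0 members. At an unadjusted p of 0.05, 6 members (E2F2, E2F6, E2F7, E2F8, MYBL2 and FOXM1) passed, against 30.4% of all genes. MYBL2 had a limma p of 0.000858 (adjusted 0.107) and FOXM1 a limma p of 0.00786 (adjusted 0.107). In limma E2F8 had a p of 0.0122 (adjusted 0.110), E2F6 of 0.0155 (adjusted 0.113), E2F7 of 0.0216 (adjusted 0.120) and E2F2 of 0.0310 (adjusted 0.136). E2F3, E2F4, E2F1 and E2F5 had limma p-values of 0.134, 0.139, 0.575 and 0.756. The adjusted calls moved strongly with the settings, from 0 to 27350 genes, as the closing section gives. Among the alternatives that called genes at an adjusted p of 0.05, E2F7, E2F8, MYBL2 and FOXM1 passed in each, beside 11.7% of all genes with quantile normalization and up to 63.2% with no filter.

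Of the genes for proteins that E2F factors and MYBL2 work with, none passed 1.5-fold. The list held those of the DP dimer partners (TFDP1, TFDP2 and TFDP3), the pocket proteins (RB1, RBL1 and RBL2) and the MuvB core (LIN9, LIN37, LIN52, LIN54 and RBBP4). All 11 genes were measured, and 0 of them passed in either knockdown. Of all genes, 12.3% were lower and 11.2% higher in SMARCA4-KD1, and 9.77% and 10.1% in SMARCA4-KD2. Their medians were -0.08 and -0.04 on the log2 scale. LIN54, the DNA-binding subunit of MuvB, was lowest, at -0.39 and -0.42, and LIN9, the subunit next to MYBL2, was at -0.19 and -0.34. RB1 was at -0.09 and -0.14 and RBL1 at -0.08 and -0.14, while RBL2 was at -0.20 and 0.03. Among the dimer partners TFDP1 was at 0.17 and 0.14, TFDP2 at -0.33 and 0.02 and TFDP3 at 0.30 and -0.17. LIN37, LIN52 and RBBP4 lay between -0.04 and 0.18.

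The kinases that inactivate RB1 and their inhibitors differed in both directions. Of 11 genes 10 were measured, CCND2 not having passed the filter on dim probes, and 3 were at least 1.5-fold lower and 2 higher in both knockdowns, beside 8.05% and 6.35% of all genes. Of the D cyclins, which activate CDK4 and CDK6, CCND1 was lower, at log2 fold changes of -0.72 and -0.99. CCND3 was at -0.52 and -0.73, short of 1.5-fold in SMARCA4-KD1. Their partner CDK6 was higher, at 1.08 and 0.76, while CDK4 was at 0.20 and 0.32 and CDK2, the partner of cyclin E, at 0.26 and 0.23. Of the inhibitors, CDKN1A (p21) was higher, at 1.06 and 0.73. CDKN2C (p18) and CDKN2D (p19), which bind CDK4 and CDK6, were lower, at -1.42 and -1.12 for CDKN2C and at -0.88 and -0.81 for CDKN2D. CDKN1B (p27) was at -0.57 and -0.39 and CDKN1C (p57) at -0.33 and -0.16. The list had medians of -0.43 and -0.28.

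The targets were described by a list of 30 E2F targets of G1 and S phase. Another list held 30 targets of MYBL2 and FOXM1 in G2 and mitosis. All genes of both lists were measured. These lists, like the members and the lists above, were chosen with earlier results of these data known. Their counts beside the shares of all genes are descriptions and support nothing. Of the G1/S genes, 7 were at least 1.5-fold lower and 1 was higher in both knockdowns, beside 8.05% and 6.35% of all genes. Their medians were -0.25 and -0.36. Among the lowest by the smaller of both changes were CCNE2, a cyclin that activates CDK2, at -0.68 and -0.77, MCM5 of the replicative helicase at -0.69 and -0.66, and thymidine kinase TK1 at -0.64 and -0.64. The gene above 1.5-fold in both was CDC25A, a phosphatase that activates CDK2, at 0.81 and 0.64. Of all 30, 24 were below and 4 above NC in both knockdowns.

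Of the G2/M genes, 15 were at least 1.5-fold lower in both knockdowns and 0 were higher, beside the same shares of all genes. Since this list too was chosen with earlier results known, the difference from these shares supports nothing. The medians were -0.73 and -0.63, and 29 of the 30 genes were below NC in both. The lowest, ranked by the smaller of both changes, were CDC25C, the phosphatase that activates CDK1, at -1.35 and -1.26, GTSE1, a microtubule-associated protein of G2 and S phase, at -1.23 and -1.11, the kinetochore protein CENPF at -1.20 and -1.10, and the centrosomal kinase NEK2 at -1.29 and -1.05. The gene not below NC was CDC20, the activator of the anaphase-promoting complex, at 0.22 and 0.01. Among single knockdowns, 19 of the G2/M genes and 7 of the G1/S genes passed 1.5-fold downward in SMARCA4-KD1, and 17 and 10 in SMARCA4-KD2, beside the shares of all genes given above. By limma at an unadjusted p of 0.05, 27 of the G2/M genes, 16 of the G1/S genes, 7 of the kinases and inhibitors and 1 of the partners (LIN54) passed, beside 30.4% of all genes, and 0 of them passed at an adjusted p of 0.05.

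**Figure D5:**
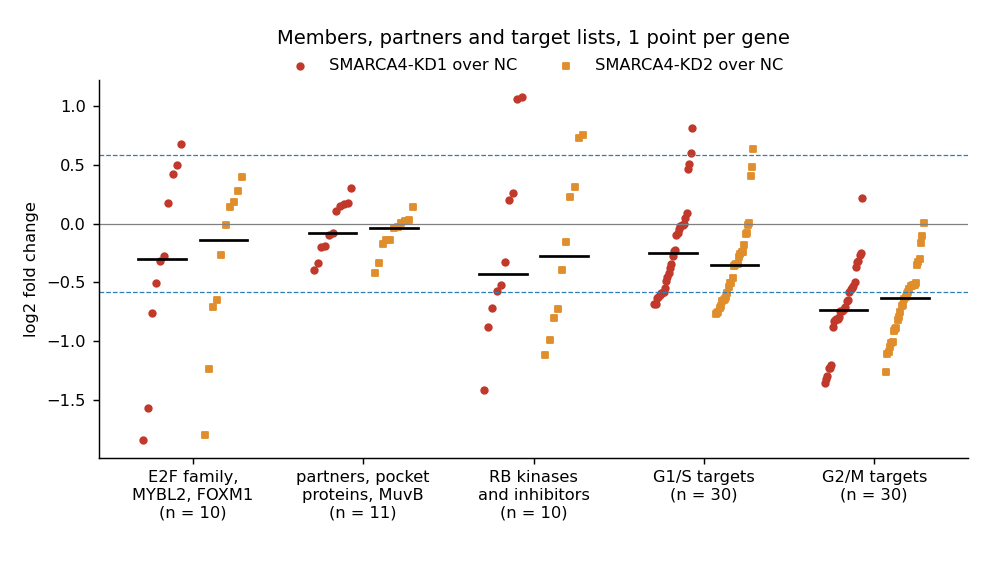
Log2 fold change against NC in SMARCA4-KD1 and SMARCA4-KD2 for the members, their partners, the RB kinases and inhibitors, the G1/S targets and the G2/M targets, with 1 point per gene, black bars for the median of each list and dashed lines at 1.5-fold. The G2/M medians lie at -0.73 and -0.63, and the partners lie between -0.42 and 0.30. Points within a list are sorted by value, and all comparisons use the same NC array. Members and lists were picked with earlier results of these data known.

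The genes with the pair of log2 fold changes nearest to that of MYBL2, by Euclidean distance over both knockdowns and among 19394 other genes above background on all arrays, were MYL9 (-1.82 and -1.77), CTB-178M22.2 (-1.80 and -1.81) and SMARCA4 itself (-1.91 and -1.80). Those nearest to FOXM1 were MRVI1 (-1.57 and -1.27), DUSP13 (-1.55 and -1.20) and PIWIL4 (-1.57 and -1.29). These likenesses rest on 3 arrays, and nothing about a shared function was drawn from them.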

How the data were processed

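Each sample was hybridised to an Agilent SurePrint G3 human expression array (v3) with 62976 spots, read in 1 colour. The authors deposited the intensity of each spot, extracted with Agilent Feature Extraction 10.7.1.1 and corrected for background and spatial trends, and a series-level table of the same intensities, which agreed within 0.1% for 13 of the 13 member probes with 1 spot. The deposited files also hold other columns, such as gene names, positions (hg19) and 0 or 1 flags, used as given.

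Control spots and spots marked as outliers were left out, the spots of a probe were averaged as log2, and the 75th percentile of each array over all probes for transcripts was subtracted. Values that were not well above background were raised to the lowest level above background of their array where they fell under it. A probe was kept if at least 1 array had it well above background (29334 probes), with the brightest probe for each of 22620 genes. Between 26619 and 27536 probes were well above background on an array, and the median SD of repeated spots within an array was 0.03 to 0.04 on the log2 scale. The number of arrays limits the precision.

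The knockdown arrays were set against NC by a threshold of 1.5-fold, without a test. Both knockdowns against NC were fitted with limma 3.58.1 (R 4.3.3) with a trend of the variance over intensity and p-values adjusted by Benjamini-Hochberg over all genes. The 1.5-fold call and the limma fit were tested on simulated gene values without a slide effect. That test covers neither the steps before them nor the overlap of slide and group. Promoter words, counts and figures were made in Python 3.11.15 (matplotlib 3.10.9, numpy 2.4.6, pandas 2.3.3). Named in the text were all members, partners, kinases and inhibitors, up to 4 lower and 2 higher genes of each target list at least 1.5-fold apart in both knockdowns (ranked by the smaller of both log2 fold changes), and the 3 genes nearest to MYBL2 and to FOXM1. Some named items are not reported here. CDC20 was named after its values were seen, and the promoter words were chosen with the sequences seen. The members and lists were chosen with earlier results of these data known. The alternatives were quantile and cyclic loess normalization, the 75th percentile over bright probes alone (well above background on each array), normexp background correction with an offset of 50, a filter that asked for all arrays, no filter, dim values left as measured (no floor), averaging a gene's probes, the series-level table and 2-fold as the threshold. For limma, a fit without the trend and unadjusted p-values were also tried. The arrays of the PRMT1 knockdown and the ChIP-seq data were not analysed here.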

Additional observations from a re-analysis of the deposited data

Results flagged for a closer look

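In 2 members the knockdowns lay on opposite sides of NC. E2F5 had log2 fold changes of -0.32 (SMARCA4-KD1) and 0.14 (SMARCA4-KD2), a difference of -0.46 between the knockdown arrays. The extraction software's error was 0.205 for the difference of each knockdown from NC and was not computed between the knockdowns. For E2F1 the difference was 0.18, with SMARCA4-KD2 at -0.01, close to NC. With 1 array per condition neither difference was tested.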

How the results depend on the processing

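Of 180 log2 fold changes of the members under alternative settings, 176 stayed within the extraction software's error of the reported value and 4 did not. These 4 were E2F3 (0.74) and E2F7 (-0.28) in SMARCA4-KD1 with the mean over probes, and MYBL2 with normexp (-1.53 and -1.51). Many of the 180 could not move. All 14 member probes were well above background on all arrays, so the all-array filter, no filter and no floor returned the same values. The mean over probes did so for the 7 members with 1 probe. The series-level table agreed within 0.1% for the 13 member probes with 1 spot, and the members moved little with it. A change of sign was counted only for values at least 1.5-fold in the main setting, and 0 of these changed sign. E2F1 in SMARCA4-KD2, below 1.5-fold, ran from -0.05 to 0.02. At 2-fold, 2 members (MYBL2 and FOXM1) were lower in each knockdown and in both, and with cyclic loess 4 were lower in SMARCA4-KD1 and in both, E2F7 joining at -0.59 in SMARCA4-KD1. At 2-fold, of the kinases and inhibitors 1 was lower and 0 were higher in both knockdowns. The G1/S genes lower in both ranged from 4 (mean over probes) to 10 (quantile and cyclic loess) at 1.5-fold and were 0 at 2-fold, and those higher in both were 0 with cyclic loess, with normexp and at 2-fold. The G2/M genes lower in both were 23 with cyclic loess and 6 at 2-fold. Genes called by limma went from 0 to 2651 with quantile normalization (11.7% of genes, 4 members), 3250 with cyclic loess (14.4%, 4 members), 3683 with normexp (16.3%, 5 members), 5176 of 19504 with a filter that asked for all arrays (26.5%, 5 members), 27350 of 43299 with no filter (63.2%, 6 members), 3360 with no floor (14.9%, 4 members), 3730 with the series-level table (16.5%, 5 members) and 6876 at an unadjusted p of 0.05 (30.4%, 6 members). The calls were 0 with the percentile over probes well above background, with the mean over probes and with no trend. The cause was not tested. The median log2 fold change of all genes lay between -0.06 and 0.04 with a filter and at -0.15 in both knockdowns without one. No paired analysis was possible because each condition has 1 array.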
